A study of Mus musculus with 6 samples.

Results

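The WAVE regulatory complex and N-WASP were followed in CAD cells that had received a plasmid expressing miR-124a-2. They were represented by 20 of the 45101 probe sets on the array, which the platform annotation assigns to 8 of 9 genes: Wasf1, Wasf2, Wasf3, Wasl, Abi1, Abi2, Cyfip2 and Nckap1. No probe set was listed for Cyfip1, so it is not analysed here. Each probe set was kept on its own. The family was singled out after the decrease of Wasf2 in this same comparison was known. Differences between the groups in these 20 probe sets are therefore given as a description with their errors, without p-values, and counts of calls among them support nothing further.

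CAD is a mouse neuroblastoma line of catecholaminergic origin. One group was transfected with the RIPmiR-124a-2 plasmid, from which the neuronal microRNA miR-124 is made, and the other with the empty RI vector. Each group had 3 biological replicates with 1 array each. The labels give the same growth medium for both, with fetal bovine serum or Fetaclone III. The promoter of the plasmid, the time after transfection and the share of cells that took it up are not given in the sources used here. Values are whole-culture averages, in which fewer cells with a transcript and less transcript per cell cannot be told apart.

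Branched actin networks, which push out the edge of lamellipodia and growth cones, are started by the Arp2/3 complex. Arp2/3 is switched on by nucleation-promoting factors. The WAVE proteins, encoded by Wasf1, Wasf2 and Wasf3, carry the part that binds actin and Arp2/3, and each works inside a complex with a CYFIP, a NCKAP1, an ABI and a BRK1 subunit that holds it inactive until the GTPase Rac binds the CYFIP subunit. N-WASP, encoded by Wasl, works outside that complex and is released from autoinhibition by Cdc42 and phosphoinositides. WAVE1 and WAVE3 are enriched in brain, while WAVE2 is widely expressed.

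The arrays differed in ways that touch the results below. Over all probe sets, the interquartile range of log2 signal was 3.06 to 3.10 in miR-124a-2 plasmid replicates 1 and 2 and empty vector replicate 1, called narrow arrays here. In the remaining 3, called wide arrays, it was 3.26 to 3.35. The poly-A spike-in controls averaged 5.88 in plasmid replicate 1 and 5.93 in vector replicate 1, and 5.51 to 5.59 on the other 4 arrays. The TrpnX control probe sets, whose bacterial target is absent from the samples, read at most 3.70, which serves here as the background level. Of 12 measured markers of a catecholaminergic neuronal line, 11 had signals above the middle of all probe sets. The exception was Slc18a2, the vesicular monoamine transporter, which averaged 3.86 with the plasmid and 3.99 with the vector. Means were higher with the plasmid for 10 of the 12, with a median difference of 0.16 and a highest of 0.54 (Syt1, a synaptic vesicle protein). Of these 12, 0 passed in limma over all probe sets (adjusted p under 0.05). The mean over the 12 was 8.47 to 8.58 on plasmid arrays and 8.29 to 8.33 on vector arrays, without overlap. Among 14 measured markers of glia, fibroblasts, immune, endothelial and epithelial cells, 4 were above that middle, the highest being Epcam (6.30 with the plasmid and 6.38 with the vector). Of these other lists, some also had higher means with the plasmid: 3 of 3 immune markers (median 0.16) and 2 of 2 endothelial ones (median 0.17). The counts were 2 of 3 for glia, 2 of 4 for fibroblasts and 0 of 2 for epithelial cells. The immune and endothelial markers Ptprc, Cd68 and Cdh5 were dim, with mean signals of 3.72, 4.02 and 3.98. Ptbp1, a reported miR-124 target, was named to follow the transfection. Its brightest probe set fell by 1.24 (SE 0.12, limma adjusted p = 0.0180). Its means were 10.78 ± 0.22 in plasmid and 12.02 ± 0.04 in vector cells (SD, n = 3 each). The plan that named Ptbp1 was made with earlier results of these data known, so this fall is not an independent check. Other Ptbp1 probe sets are not given here.

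Within the family, Wasf2 was the gene whose signal stood apart, and both of its probe sets gave almost the same difference. Wasf2 encodes WAVE2, the broadly expressed family member. Probe set 1454673_at read 7.55, 7.30 and 7.88 in miR-124a-2 plasmid replicates 1, 2 and 3, against 9.26, 9.16 and 9.28 in empty vector replicates 1, 2 and 3 (log2 signal). All plasmid arrays lay more than 1 log2 unit below every vector array. The means were 7.58 ± 0.29 with the plasmid and 9.23 ± 0.06 with the vector (SD, n = 3 each), a log2 difference of -1.65 ± 0.15 (SE), or 3.15-fold lower. The spread among plasmid arrays was larger than among vector arrays.

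Probe set 1438683_at of Wasf2 read 5.50, 5.97 and 6.49 in the plasmid replicates, against 7.09, 7.94 and 7.92 in the vector replicates. The groups did not overlap here either, although the lowest value of each group came from its replicate 1. The means were 5.99 ± 0.49 with the plasmid and 7.65 ± 0.49 with the vector, a log2 difference of -1.66 ± 0.29 (SE), or 3.17-fold lower. Its error was larger than that of 1454673_at. Over all probe sets on the array, 1438683_at and 1454673_at held the ranks 7 and 8 when differences were ordered from the lowest upwards.

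**Figure D1:**
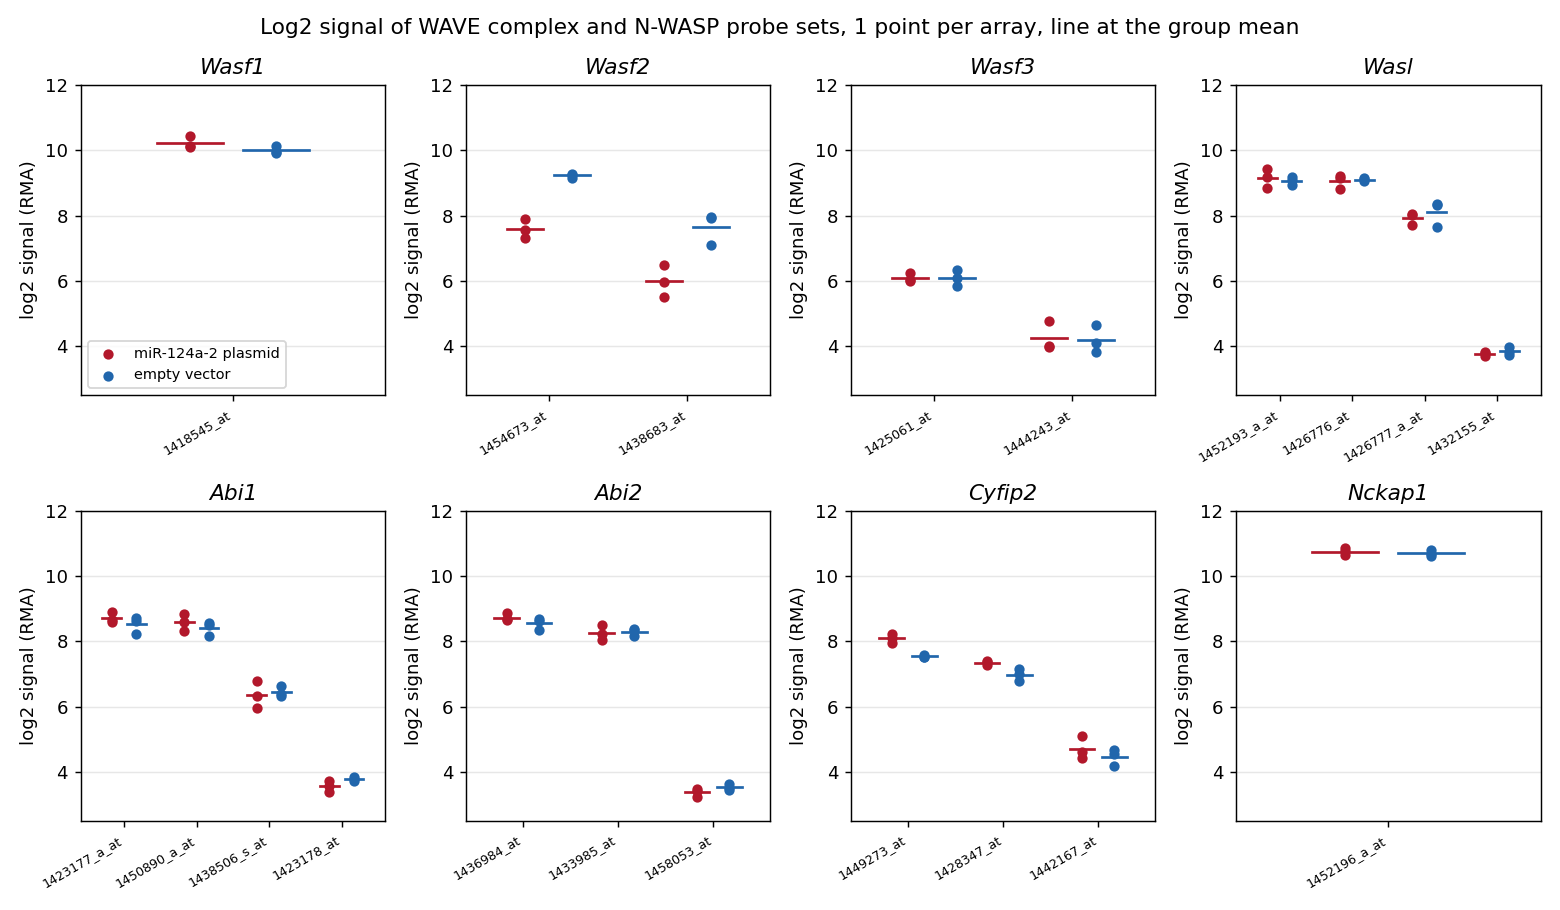
Log2 signal (vertical axis) of each of the 20 probe sets, 1 panel per gene, with 3 miR-124a-2 plasmid arrays (red, left) and 3 empty vector arrays (blue, right) as points and the group mean as a line. The groups lie far apart in both Wasf2 probe sets, for example 7.58 with the plasmid and 9.23 with the vector in 1454673_at, slightly apart in Cyfip2 1449273_at, and close together in most other panels.

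The size of the Wasf2 difference varied with the array sets. Its sign could not change within a set, since the groups did not overlap. Among narrow arrays, 1454673_at had a difference of -1.83 and 1438683_at one of -1.35. Among wide arrays, the values were -1.34 and -1.44. The narrow values rest on 1 vector array, and the wide values on 1 plasmid array. With the array set as a block, the differences were -1.58 and -1.40. Given the group, 1438683_at read 0.80 higher in wide than in narrow arrays and 1454673_at read 0.21 higher. Over the 20 probe sets 14 were higher in wide arrays, with a median of 0.19, against a median of -0.03 over all probe sets. The array sets differ in the spread of signal, so bright and dim probe sets need not shift alike between them. The median over all probe sets is not matched to the members for signal, so nothing particular to the family is read from this. The part of the array sets in the other members' differences was not tested.

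In the limma fit over all 45101 probe sets, 1 of the 20 was past the threshold (adjusted p under 0.05), Wasf2 1454673_at, which fell. Over the whole array 0.268% of probe sets were past it, 0.208% in that direction and 0.0599% as higher. None of the 20 was past it as higher (4 of the 20, and 3688 of the 45101, had an unadjusted p under 0.05 in either direction). The comparison that gives this count is the one that drew attention to the family, so nothing is read from it. The count changed when single arrays were left out, which also lowers the power of the fit. The part of each in the change was not tested. Without miR-124a-2 plasmid replicate 1, or without empty vector replicate 1, 2 or 3, none of the 45101 probe sets passed in limma (3455, 4247, 2309 and 2408 had an unadjusted p under 0.05). Without plasmid replicate 2, 12 probe sets passed, 1454673_at among them, and without plasmid replicate 3, 352 passed, with both Wasf2 probe sets among them. Over the 6 fits that leave out an array, the difference of 1454673_at itself ran from -1.81 to -1.52 and that of 1438683_at from -1.94 to -1.42.

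The other WAVE genes did not show a decrease of that size. Wasf1, which encodes the brain-enriched WAVE1, had 1 probe set (1418545_at), which read 10.10, 10.14 and 10.43 in the plasmid replicates, against 9.92, 9.95 and 10.14 in the vector replicates. The groups overlapped, since plasmid replicate 1 lay below vector replicate 3. The log2 difference was 0.22 ± 0.12 (SE), with a 95% interval of -0.06 to 0.50. Wasf1 kept a positive difference, from 0.12 to 0.39, under all 15 other settings tried on its values.

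Wasf3 encodes WAVE3. Its probe set 1425061_at read 6.00, 6.02 and 6.25 in the plasmid replicates, against 5.86, 6.09 and 6.32 in the vector replicates. The plasmid values lay inside the range of the vector values. Both group means were 6.09, and the 95% interval of the difference was -0.32 to 0.32. The second probe set, 1444243_at, read 4.78, 4.02 and 3.99 with the plasmid and 4.66, 3.82 and 4.09 with the vector, with replicate 1 the highest in both groups. Its difference of 0.07 ± 0.26 had an interval of -0.54 to 0.68 and changed sign in 4 of the 15 other settings. Whether Wasf2 differs from Wasf1 and Wasf3 was not tested, because Wasf2 was chosen by this difference.

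**Figure D2:**
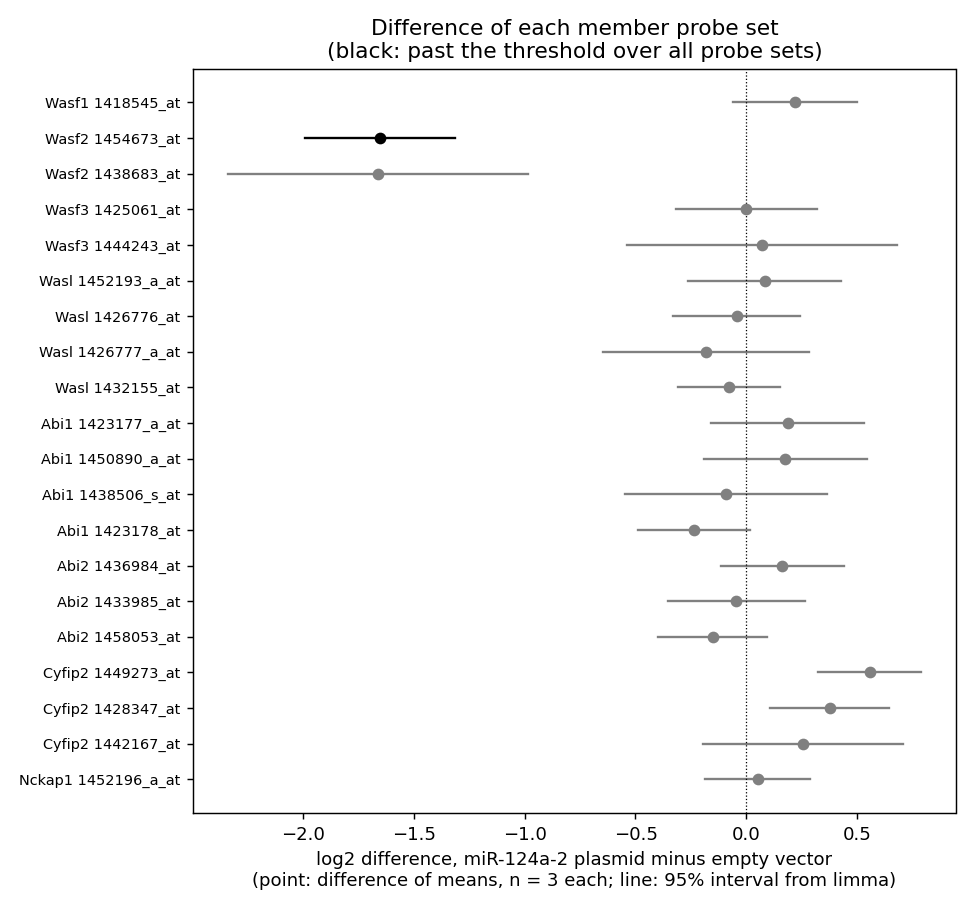
Log2 difference (horizontal axis, miR-124a-2 plasmid minus empty vector) of each of the 20 probe sets, with points for the difference of means (n = 3 each) and lines for the 95% interval from limma. The Wasf2 probe sets sit at -1.65 and -1.66, Cyfip2 1449273_at at 0.56 and 1428347_at at 0.38, and the intervals of the other 16 include 0.

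Wasl, the N-WASP gene, had 4 probe sets, of which 3 had slightly negative differences. Probe set 1452193_a_at read 9.18, 8.86 and 9.41 in the plasmid replicates, against 9.10, 8.93 and 9.17 in the vector replicates. The plasmid arrays surrounded the vector arrays. The difference was 0.08 ± 0.15 (95% interval -0.26 to 0.43). Probe set 1426776_at had a difference of -0.04 ± 0.12 (95% interval -0.33 to 0.24), with means of 9.06 ± 0.22 with the plasmid and 9.10 ± 0.04 with the vector. Probe set 1426777_a_at read 7.70, 8.05 and 8.02 with the plasmid and 7.64, 8.32 and 8.36 with the vector, replicate 1 being the lowest in both groups. Its difference was -0.18 ± 0.20 over all arrays, 0.24 among narrow arrays and -0.32 among wide ones. Probe set 1432155_at averaged 3.77 with the plasmid and 3.85 with the vector, close to the background level. The groups overlapped in all 4.

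Among the subunits that hold WAVE in its complex, Cyfip2 had positive differences in all 3 of its probe sets. It encodes CYFIP2, one of the Rac-binding subunits and an interactor of the fragile X protein FMRP. Probe set 1449273_at read 8.22, 7.97 and 8.09 in the plasmid replicates, against 7.59, 7.51 and 7.51 in the vector replicates. The groups did not overlap, and the gap between them exceeded the range within either group. The means were 8.09 ± 0.13 with the plasmid and 7.54 ± 0.04 with the vector, a log2 difference of 0.56 ± 0.10 (SE), or 1.47-fold.

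Probe set 1428347_at of Cyfip2 read 7.41, 7.27 and 7.38 with the plasmid and 7.15, 6.78 and 6.99 with the vector, again without overlap. Its difference was 0.38 ± 0.12, and it was 0.19 among narrow arrays and 0.49 among wide ones. The remaining probe set, 1442167_at, read 5.11, 4.43 and 4.62 with the plasmid and 4.67, 4.17 and 4.55 with the vector, where the groups overlapped, and its difference was 0.26 ± 0.20. None of the 3 passed over all probe sets. In a fit blocked on the poly-A batch, 1449273_at passed along with both Wasf2 probe sets, where 0.752% of all probe sets passed, 0.208% as higher and 0.543% as lower. In a fit blocked on the array set, both Wasf2 probe sets passed and 1449273_at did not, where 1.13% passed, 0.439% as higher and 0.69% as lower. Blocking on the replicate number left these same 3 past the threshold as for the poly-A batch, where 1.49% passed, 0.388% as higher and 1.1% as lower. Markers of the neuronal line were also mostly higher with the plasmid, by up to 0.54, and so were immune and endothelial markers, by up to 0.25. The larger immune and endothelial differences came from dim probe sets: Cdh5 (0.25), Cd68 (0.24) and Ptprc (0.16) averaged 3.98, 4.02 and 3.72. The brighter Pecam1 and Csf1r, at 4.73 and 6.18, had 0.10 and 0.05. The part of such shifts in the Cyfip2 differences was not tested. The difference of 1449273_at stayed between 0.49 and 0.62 in the 15 other settings.

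**Figure D3:**
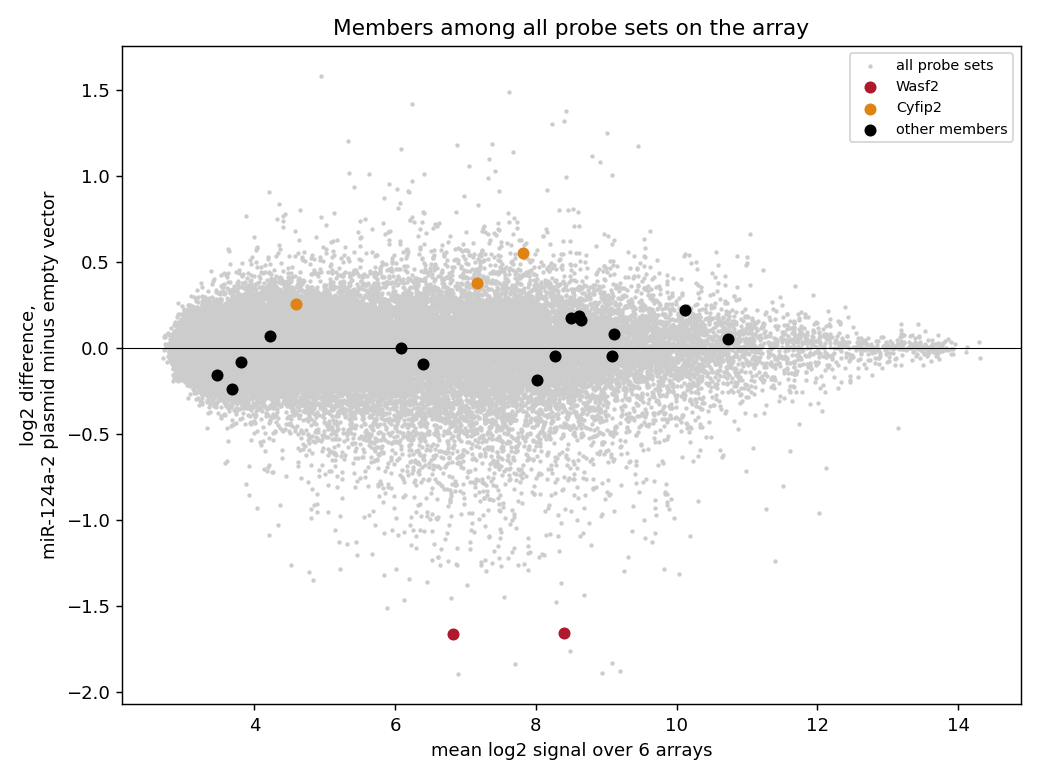
Log2 difference (vertical axis, miR-124a-2 plasmid minus empty vector) against mean log2 signal over 6 arrays (horizontal axis) for all 45101 probe sets (grey), with Wasf2 in red, Cyfip2 in orange and the other members in black. The Wasf2 points, at -1.65 and -1.66, lie near the lower edge of the cloud, and the black points lie within the bulk of it, between -0.24 and 0.22.

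Abi1 and Abi2 encode the ABI subunits, adaptors that link the complex to Abl kinases. The Abi1 probe sets 1423177_a_at and 1450890_a_at had differences of 0.19 ± 0.15 and 0.18 ± 0.16, and their groups overlapped. Probe set 1438506_s_at of Abi1 read 6.32, 5.96 and 6.79 with the plasmid and 6.33, 6.39 and 6.62 with the vector, the plasmid arrays spanning the vector arrays, and its difference was -0.09 ± 0.20. Probe set 1423178_at of Abi1 read 3.58, 3.39 and 3.71 with the plasmid and 3.74, 3.85 and 3.80 with the vector. Those groups did not overlap, and the difference was -0.24 ± 0.11. The vector arrays lay just above the background level of 3.70, and plasmid replicates 1 and 2 lay below it.

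Abi2 gave 3 probe sets with overlapping groups. Probe set 1436984_at read 8.64, 8.68 and 8.86 with the plasmid and 8.36, 8.64 and 8.70 with the vector, a difference of 0.16 ± 0.12. The difference of 1433985_at was -0.05 ± 0.13, and 1458053_at, also below the background level, had -0.15 ± 0.11. Nckap1 encodes the scaffold subunit that pairs with CYFIP. Its probe set 1452196_a_at read 10.77, 10.63 and 10.85 with the plasmid and 10.80, 10.61 and 10.68 with the vector, and the difference was 0.05 ± 0.10 (95% interval -0.18 to 0.29). Replicate 2 was the lowest in both groups.

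Across the family, 9 probe sets had lower and 11 had higher means with the plasmid. The median difference was 0.03, against 0.00 over all probe sets. Groups did not overlap in 5 probe sets, 3 lower (both of Wasf2 and the dim 1423178_at of Abi1) and 2 higher (both in Cyfip2). Over the array, 6.96% of probe sets were lower and 6.27% higher without overlap. Outside Wasf2 and Cyfip2, the 15 other probe sets had differences between -0.24 and 0.22. The median standard deviation within groups was 0.19 for the family and 0.15 for all probe sets.

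Other subunits and paralogs of the complex were measured as well. Brk1, the small subunit of every WAVE complex, read 10.24, 10.13 and 10.13 with the plasmid and 10.27, 10.25 and 10.15 with the vector in 1423188_a_at (log2 difference -0.06, limma adjusted p = 0.952). Its second probe set, 1423189_at, also had -0.06. Abi3, another ABI gene, had 0.17 in 1452928_at and -0.01 in a dim probe set. Nckap1l, the blood-cell counterpart of Nckap1, had 0.06 and 0.09. Was, the blood-cell counterpart of Wasl, averaged 3.85 with the plasmid and 3.91 with the vector, near the background level. None of these 4 genes passed.

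The wider pathway was described with 5 lists that together held 74 genes, of which 67 were measured by 163 probe sets. In limma over all probe sets, 1 gene fell (Rhog), 2 rose (Cdc42 and Coro1a) and 64 did not pass. Of all 18194 genes with a probe set, 0.506% had 1 that passed, 0.385% as lower and 0.121% as higher. These lists were drawn up with earlier results in view, in which Rhog and Coro1a had already been seen to change. The median difference over the 163 probe sets was 0.01, against 0.00 over all probe sets. Without miR-124a-2 plasmid replicate 1 or 2, or any 1 of the vector arrays, none of the 3 passed in limma. In those fits, 9 to 15 pathway genes had an unadjusted p under 0.05 in limma, and so did 2309 to 4247 of all 45101 probe sets. Without plasmid replicate 3, 5 genes passed, these 3 with Cfl2 and Fnbp1.

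Cdc42, the GTPase that activates N-WASP, rose in 1 of its 4 probe sets. Probe set 1435807_at read 6.91, 6.65 and 7.30 in the plasmid replicates, against 5.40, 5.70 and 5.50 in the vector replicates. All plasmid arrays were higher than all vector arrays. The log2 difference was 1.42 ± 0.17 (SE, limma adjusted p = 0.0257), or 2.68-fold, and it was 1.38 among narrow arrays and 1.70 among wide ones. The other 3 probe sets of Cdc42 had overlapping groups and differences of 0.10 (1449574_a_at), 0.03 (1460708_s_at) and -0.06 (1415724_a_at). Which Cdc42 transcript each probe set detects is not given in the sources used here. Median centring ended the Cdc42 and Coro1a calls, and an intensity trend ended that of Coro1a. Keeping 1 probe set per gene, the brightest, left out 1435807_at, so Cdc42 could not be called through it there.

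Rhog, a Rac-related GTPase that acts through ELMO and DOCK proteins on Rac, fell in its only probe set. It read 6.28, 6.31 and 6.42 with the plasmid and 7.34, 7.24 and 7.10 with the vector, without overlap. The difference was -0.89 ± 0.10 (SE, limma adjusted p = 0.0226). Rac1, the GTPase that opens the WAVE complex, had differences of -0.06 and -0.12 in its 2 bright probe sets and -0.02 in a dim one. The list of upstream GTPases and adaptors had a median of -0.02 over 52 probe sets, and 20 of its 22 measured genes did not pass.

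**Figure D4:**
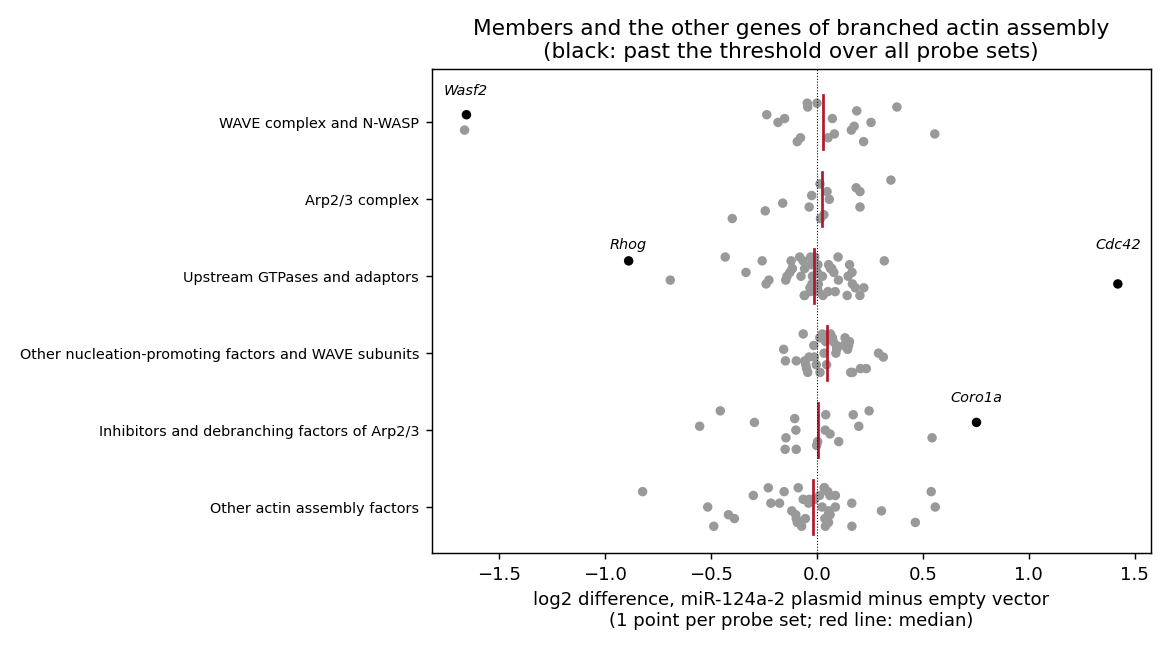
Log2 difference (horizontal axis, miR-124a-2 plasmid minus empty vector) of each probe set of the family and of the 5 pathway lists (rows), with points past the threshold over all probe sets in black and the median of each row as a red line. The medians lie between -0.02 and 0.05, and the labelled points are Wasf2 (1 of its 2 points past the threshold, at -1.65), Rhog at -0.89, Cdc42 at 1.42 and Coro1a at 0.75.

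The Arp2/3 complex itself had 6 measured genes of 10, and none passed. The median over its 14 probe sets was 0.03. Its largest differences were -0.40 in 1 of 4 probe sets of Arpc5l and 0.35 in Arpc1a, both subunits of the complex. The other Arpc5l probe sets had -0.16 (1452044_at, the brightest), 0.20 (1444011_at) and 0.20 (1441190_at). Arpc1a read 9.75, 9.73 and 9.68 with the plasmid and 9.37, 9.42 and 9.32 with the vector, without overlap (limma adjusted p = 0.216). Among 13 other nucleation-promoting factors and WAVE subunits none passed either, with a median of 0.05. Their largest values were 0.31 in 1 of 4 probe sets of Jmy, a factor that also builds unbranched filaments, and 0.29 in 1 of 2 of Washc1, a subunit of the endosomal WASH complex. The other Jmy probe sets had 0.16, 0.15 and -0.15. The Washc1 probe set read 6.24, 6.88 and 6.06 with the plasmid and 6.02, 6.20 and 6.09 with the vector, so that only plasmid replicates 1 and 2 lay above all vector arrays, and among wide arrays its difference was -0.08. The other Washc1 probe set had 0.07.

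Among 8 measured inhibitors and debranching factors of Arp2/3, Coro1a rose and 7 did not pass. Coro1a encodes a coronin, a filament-binding protein that acts on Arp2/3. Its probe set 1416246_a_at read 5.88, 5.87 and 6.09 with the plasmid and 5.08, 5.27 and 5.23 with the vector, a difference of 0.75 ± 0.11 (SE, limma adjusted p = 0.0420). The other 2 Coro1a probe sets, at 0.54 and 0.25, were also higher without overlap but did not pass. The one at 0.54 passed in limma when blocked on array set (adjusted p = 0.0219), and the one at 0.25 averaged below the background level over the 6 arrays. Of 18 measured genes of other actin assembly factors none passed. The largest differences were -0.82 in 1 of 3 probe sets of Cfl2, a filament-severing cofilin, and 0.56 for Pfn2, the profilin enriched in brain (limma adjusted p = 0.117 and 0.0642). The other 2 Cfl2 probe sets had -0.39 and 0.02. Pfn2 read 10.77, 10.90 and 10.84 with the plasmid and 10.25, 10.30 and 10.28 with the vector, without overlap, and its other 2 probe sets had 0.54 and 0.46. Blocked fits changed the Pfn2 call: 1418210_at passed in limma when blocked on array set (adjusted p = 0.0345), on replicate number (adjusted p = 0.0341) and on poly-A batch (adjusted p = 0.0376), and 1418209_a_at also passed in all 3.

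The genes whose values over the 6 arrays were most like those of Wasf2 1454673_at were looked for among 705 probe sets with 1 gene and a standard deviation of at least 0.5. The 5 with the highest Pearson correlation were Suclg2, Ptbp1, Pttg1ip, Lclat1 and Xrcc6, with correlations between 0.997 and 0.999. All had lower means with the plasmid, by differences between -1.29 and -0.99. A correlation over 6 arrays in 2 groups carries the group difference, and the arrays share their array sets, so this is a description of likeness and nothing more.

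**Figure D5:**
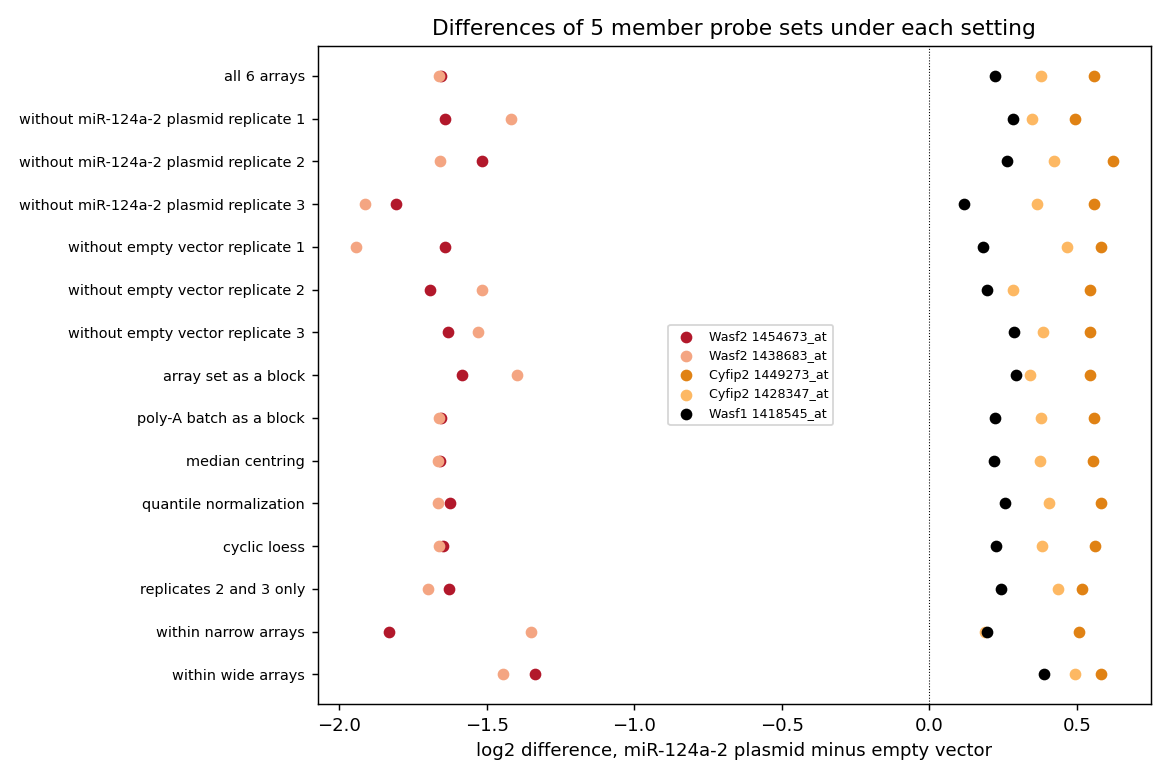
Log2 difference (horizontal axis, miR-124a-2 plasmid minus empty vector) of 5 probe sets under each setting (rows): all 6 arrays, each array left out, blocks, other scalings, replicates 2 and 3 only, and within the narrow or wide arrays. Wasf2 1454673_at stays between -1.83 and -1.34 and 1438683_at between -1.94 and -1.35, Cyfip2 1449273_at stays between 0.49 and 0.62, and Wasf1 stays between 0.12 and 0.39.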

How the data were processed

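Total RNA of 6 CAD cell samples was measured on 1 array each, with 6 ug biotin-labelled per the labels. The authors deposited 1 log2 signal per probe set and array. RMA is the tool that the submitters' processing notes name, and its version and probe definitions are not given in the sources used here. Arrays give no read depth, and their number limits precision. No further scaling was applied.

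Genes were named from the 2016 platform annotation: 34958 probe sets had 1 gene, 932 several and 9211 none listed, and only the first were used for genes. Groups were compared with limma 3.58.1 in R 4.3.3 in a two-sided test of group means without a block (lmFit, eBayes). P-values were adjusted over all probe sets by the Benjamini-Hochberg method, with 0.05 as threshold. The script was tested on simulated data with independent noise on each array, without array sets or likeness between replicates. There, 11.8% of true log2 changes of 0.5 passed, 67.2% of changes of 1 and 88.2% of changes of 1.5. Small changes were thus mostly missed, so a gene that did not pass is not shown to be unchanged. Errors of differences are the fit's standard errors. The labels call the replicates biological without describing separate cultures, so p-values measure the spread between these samples.

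The members, the lists and the array sets were chosen with earlier results of these data known. From each list up to 4 genes past the threshold are named, or the 2 with the largest difference. Array sets and poly-A batches were divided at the largest gap between arrays. Alternatives were each array left out, blocks, other scalings, a filter on dim probe sets, an intensity trend, 1 probe set per gene and other thresholds. Replicates 2 and 3 alone were added after the data were seen.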

Additional observations from a re-analysis of the deposited data

How the results depend on the processing

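The difference of Wasf2 1454673_at, the member past the threshold, was negative in all 15 settings that recompute it. The number of probe sets past the threshold, 121 with all arrays, was 509 when blocked on the array set and 339 when blocked on the poly-A batch, 39 with median centring, 262 with quantile normalization, 244 with cyclic loess, 215 with an intensity trend (229 with robust estimation), 0 at a threshold of 0.01 and 301 at 0.1. It was 0 with replicates 2 and 3 alone in limma (3732 at an unadjusted p under 0.05) and ran from 0 to 352 over the fits that leave out an array. Filtering dim probe sets gave 130, and 1 probe set per gene gave 165 genes.

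Of the 20 member probe sets, 1 passed, as did 121 of all 45101. Both Wasf2 probe sets passed (2) when the array set was a block (509 over the array). They also passed with quantile normalization (262 over the array) and with either intensity trend (215 and 229). These and Cyfip2 1449273_at (3) passed when blocked on the poly-A batch (339 over the array) and at a threshold of 0.1 (301). With 1 probe set per gene, Wasf2 1454673_at and Cyfip2 1449273_at passed (2, and 165 over all genes). The count was 0 at a threshold of 0.01 and with replicates 2 and 3 alone, as over the array. With replicates 2 and 3 alone, 5 members and 3732 of all probe sets had an unadjusted p under 0.05 in limma. It was 0 to 2 with an array left out (0 to 352 over the array). The counts over the array moved too, so nothing is read from the member counts. The difference of Wasf2 1454673_at was -1.34 among wide arrays, and -1.81 to -1.52 with an array left out. Of the pathway genes 3 passed, against 1 with median centring (Rhog), 0 at a threshold of 0.01 and with replicates 2 and 3 alone (14 at an unadjusted p under 0.05), and 0 to 5 with an array left out. A count over all genes is given only for the main fit and for 1 probe set per gene. Pfn2 passed when blocked on the array set or the poly-A batch, with quantile normalization, cyclic loess, either intensity trend and 1 probe set per gene, and at a threshold of 0.1. The cause of these changes was not tested.

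Replicate numbers are shared between the groups, and deviations from the group means correlated at 0.58, 0.03 and 0.56 in pairs 1, 2 and 3. Pairs 1 and 3 thus shared deviations and pair 2 did not. Pair 1 held narrow arrays only and pair 3 wide arrays only, while pair 2 was narrow with the plasmid and wide with the vector. Whether this likeness goes with the replicate number or with the array set was not tested. The labels do not state that the numbers pair the samples, so the main fit has no such block and leaves that likeness out. With the replicate number as a block, 673 probe sets, 3 member probe sets (both of Wasf2 and Cyfip2 1449273_at) and 6 pathway genes (Cdc42, Cfl2, Coro1a, Fnbp1, Pfn2 and Rhog) passed, and 2 of 3 plasmid arrays correlated best with their own number.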

Other observations

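Binding partners of N-WASP outside the naming rule were chosen after their values were seen. The 10 in the pathway lists (Wipf1, Wipf2, Wipf3, Fnbp1, Fnbp1l, Trip10, Nck1, Nck2, Grb2 and Baiap2) had 22 probe sets, 12 with lower and 10 with higher means with the plasmid and a median difference of -0.02. Groups did not overlap in 2 as lower and 1 as higher. Over the array, 6.96% of probe sets were lower and 6.27% higher without overlap, so nothing is read from this count. The higher one was in Grb2, with 0.10 there and -0.13 in its other probe set. The 2 lower ones were in Wipf1 and Fnbp1. Wipf1 encodes WIP, which binds and stabilises N-WASP, and had lower means in both of its probe sets, with differences of -0.43 and -0.33 (groups overlapped in the second). Its probe set 1436953_at read 5.35, 5.19 and 5.48 with the plasmid and 5.56, 5.79 and 5.97 with the vector, without overlap, and did not pass in limma (adjusted p = 0.342). Fnbp1 encodes an F-BAR protein that binds N-WASP at curved membranes. Its probe set 1453746_at read 5.30, 5.02 and 5.50 with the plasmid and 6.03, 5.91 and 5.95 with the vector, a difference of -0.69 (limma adjusted p = 0.104), while its other 2 probe sets had 0.20 and 0.07. Among their relatives, Wipf3 had 0.03, Fnbp1l 0.17, and Wipf2 -0.03 and -0.26.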
